A study of Mus musculus with 6 samples.

Results

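Wild type and Werner syndrome mutant mouse embryonic fibroblasts were compared after both had been exposed to hydrogen peroxide. The mutant cells, called WS, carried the Wrn Δhel/Δhel genotype, a homozygous in-frame deletion within the helicase domain of the mouse Werner syndrome gene. The wild type cells, called WT, came from the same mixed 129/Sv and Black Swiss background. All cells were primary fibroblasts from embryos of day 15 by the labels. Treated cells received 0.5 mM H2O2 for 1 h and recovered for 24 h in fresh medium, and 2 arrays were hybridised for each genotype (WT-H2O2 and WS-H2O2). Each of these 4 arrays, of 6 in the series, carried treated RNA in Cy5 and untreated RNA of the same genotype in Cy3. The comparison used the Cy5 channel alone, so a dye preference of a probe was the same in both genotypes. A probe entered when its Cy5 signal was well above background on both arrays of at least 1 genotype, which 22836 of 41174 probes met, and 22522 of them had a value in both genotypes. The replicates are labelled as biological, and nothing states that they came from separate embryos, so p-values measure only the spread between these samples.

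The Werner syndrome protein is a RecQ helicase with an exonuclease domain that works at stalled replication forks, in DNA break repair and at telomeres, and its loss in humans causes a premature ageing disorder with early atherosclerosis, cataracts and connective tissue changes. Hydrogen peroxide oxidises DNA, proteins and lipids. Fibroblasts answer it with NRF2, p53 and ATF4 programmes, among others, and surviving cells can slow or stop dividing. Fibroblasts also make much of the matrix of connective tissue, and cultures keep Hox gene patterns that reflect the body region they came from.

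Cy5 signal was well above background for 56.6% and 69.2% of spots on the WT-H2O2 arrays (replicates 1 and 2) and for 55.2% and 41.5% on the WS-H2O2 arrays, and no tested probe was saturated. WT-H2O2 replicate 2 had 5281 outlier spots in Cy5 (12.7%), against 59 to 535 on the other arrays, and these spots were left out, so 4378 tested probes lacked its value. The weak Cy5 of WS-H2O2 replicate 2 made the filter uneven, since 6088 probes passed through WT alone and 317 through WS alone. The WS arrays correlated at r = 0.949 across probes and the WT arrays at r = 0.891, and the lowest r between genotypes was 0.818. On the 2 arrays that set untreated WT against untreated WS, whose labels place WT in Cy5, the Cy5 over Cy3 ratio had the sign of WS minus WT for 94.9% and 96.8% of the probes called below. Read by their dye labels, those arrays thus ran opposite to the 4 treatment arrays, and the cause was not tested. They entered no comparison. Every direction here rests on the genotype labels of the 4 treatment arrays and would reverse with them.

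The targeted gene was measured first. The brightest Wrn probe read 4.26 and 4.46 in WT and 4.56 and 4.76 in WS (log2 Cy5 intensity), a difference of 0.30 ± 0.34 (SE, limma adjusted p = 0.675). None of the 3 Wrn probes tested passed the threshold (0.16 to 0.61), and the fourth was not well above background on any array. The genotype deletes only part of the gene and the positions of the probes within it were not given in the sources used here, so this signal does not check the genotype.

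Of 13 fibroblast markers on the array, 11 were well above background on all 4 arrays. Their summed intensity was 31806 and 32867 in WT and 41262 and 49461 in WS. Markers of blood cells were sparse, while summed skeletal muscle markers were 4849 and 5213 in WT and 5204 and 4254 in WS, with none of 14 tested called. For mast cells and basophils, 7 of 13 markers were above background on no array, among them Kit, Cpa3 and Ms4a2. The summed level was 434 and 858 in WT against 152 and 187 in WS. In WT it came mostly from Mcpt8 (log2 8.16 and 8.35, against 4.20 and 3.52 in WS). On WT-H2O2 replicate 2 it came also from Mcpt2 (8.75, against 3.16 on replicate 1). For macrophages, 6 of 15 were above background nowhere, at 449 and 465 in WT and 638 and 479 in WS. Summed chondrocyte and osteoblast markers were 1854 and 1966 in WT and 4469 and 7073 in WS, mostly from Col2a1 (log2 10.33 and 10.43 in WT, 11.56 and 12.52 in WS, adjusted p = 0.0603). A second probe of Col2a1, which did not enter the sum, differed by 0.16 (log2). The part of these differences in the gene results was not tested, and more cells of a type cannot be told apart from more RNA per cell in bulk samples. Of 4 Y-linked genes, 3 were above background on no array and none was tested, while Xist was detected on all 4.

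After treatment 507 probes differed between the genotypes at an adjusted p under 0.05 and at least 2-fold, 2.25% of those tested, with 224 higher and 283 lower in WS. Taking the brightest probe of each gene, 358 of 13303 genes were called (2.69%), 157 higher (1.18%) and 201 lower (1.51%), and 219 of them differed at least 4-fold. Of the genes well above background on all 4 arrays, 209 of 10338 were called (2.02%). The median difference over the tested probes was -0.15 (log2). That median was -0.25 with median centring in place of quantile normalization and 0.02 with outlier spots kept, and the share of called probes that were higher in WS was 44.2% as reported, 34.0% with median centring and 69.4% with outlier spots kept. Among the 16117 tested probes well above background on all 4 arrays, 140 were called higher and 135 lower. Leaving out WS-H2O2 replicate 1 or 2 left 1 and 0 calls, and leaving out WT-H2O2 replicate 1 or 2 gave 3081 and 1231. Every main call kept its direction in each of these refits where it was tested.

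**Figure D1:**
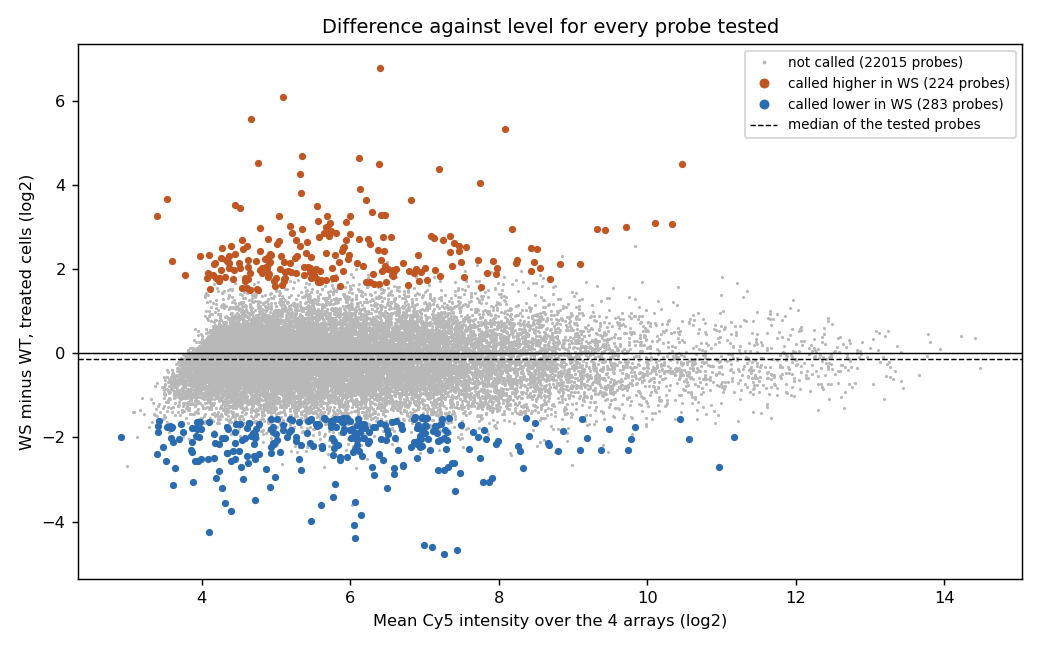
Difference between treated WS and treated WT (log2, vertical axis) against mean Cy5 intensity over the 4 arrays (log2, horizontal axis), 1 point per probe tested. The 224 probes called higher lie at the top and the 283 called lower at the bottom, mostly at low and middle levels, and the dashed line marks the median of -0.15.

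Plac8, which encodes a small cysteine-rich protein, showed the largest rise among named genes with all 4 values. It read 2.95 and 3.10 in WT and 9.64 and 9.94 in WS. Both WT arrays were not well above background, so WS was at least 84.9-fold higher (adjusted p = 3.54e-05). That bound, like the others given as "at least", sets the mean of the bright genotype against a floor in the dim one. The floor is the lowest signal well above background on each dim array, or the probe's own value where that is higher. Such bounds hold for this processing only. Some alternatives gave smaller differences than these bounds, down to 4.04 (log2) for Plac8. Crip2, a LIM domain protein, was measured on every array and stood at 5.24 and 5.60 in WT and 10.74 and 10.76 in WS, a 40.3-fold difference (5.33 ± 0.34 log2, SE, adjusted p = 0.000195). Both genes separated the genotypes by far more than the replicates differed, and both had been chosen for large differences without overlap.

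Several receptors and secreted or surface proteins followed. Olfm1, a secreted olfactomedin-domain glycoprotein, was 4.26 and 3.32 in WT, with 1 array well above background, and 8.28 and 8.59 in WS. Tril, a leucine-rich partner of Toll-like receptor 4, was 4.16 and 4.12 against 8.24 and 9.03 (4.50 ± 0.38, adjusted p = 0.000544), and its second probe was also called. Plxdc2, a transmembrane protein with a plexin domain, differed 12.4-fold (4.49 and 4.32 against 8.18 and 7.89). Agtr2, the type 2 receptor for angiotensin II, gave 3.86 and 3.77 in WT, with 1 array well above background, and 7.30 on both WS arrays. No value of either genotype overlapped the other for these genes, as the choice of genes required. The transcription factor gene Ebf2 differed by 3.35 ± 0.47, with the WT arrays themselves apart at 5.36 and 3.88, and the haem-binding protein gene Hebp2 by 3.27 ± 0.35. Insl3, a relaxin-family hormone, and Naalad2, a dipeptidase, were not well above background in WT and were at least 9.18-fold and 3.25-fold higher in WS.

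Among the genes lower in WS the first were Ctla2a and Ctla2b, neighbouring genes for inhibitors of cathepsin-like cysteine proteases. Ctla2a read 9.67 and 9.64 in WT and 5.38 and 4.36 in WS, with 1 WS array well above background, and Ctla2b read 9.82 and 9.71 against 5.36 and 4.84 (-4.67 ± 0.35, adjusted p = 0.000334). Their sequences are similar, so the probes may share signal. Ptn, the heparin-binding growth factor pleiotrophin, was 8.61 and 9.93 in WT and 5.06 and 4.37 in WS, with 1 WS array well above background. Mcpt8, a protease of basophils, was 8.16 and 8.35 against 4.20 and 3.52, again with 1 WS array well above background. It was the only member of the mast cell and basophil list that was called, among 4 tested.

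Cck, the precursor of the peptide hormone cholecystokinin, fell from 8.13 and 8.06 in WT to 4.27 and 3.73 in WS. Only 1 WS array was well above background for it, and a second probe of the gene was not called (0.24). Sfrp1, a secreted Wnt antagonist, was 7.59 and 7.35 in WT and not well above background in WS, at least 11.5-fold lower. Ptgis, prostacyclin synthase, was 7.79 and 7.88 against 4.48 and 4.13, with 1 WS array well above background. The other 4 genes were dim on both WS arrays, so only bounds hold for them. WS was at least 11.1-fold lower for the axonal kinesin gene Kif1a, 4.99-fold for Itm2a, 4.82-fold for the amino acid transporter gene Slc38a4 and 4.44-fold for Glipr1. Second probes of Kif1a and Slc38a4 gave smaller differences (-0.93 and -0.71).

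**Figure D2:**
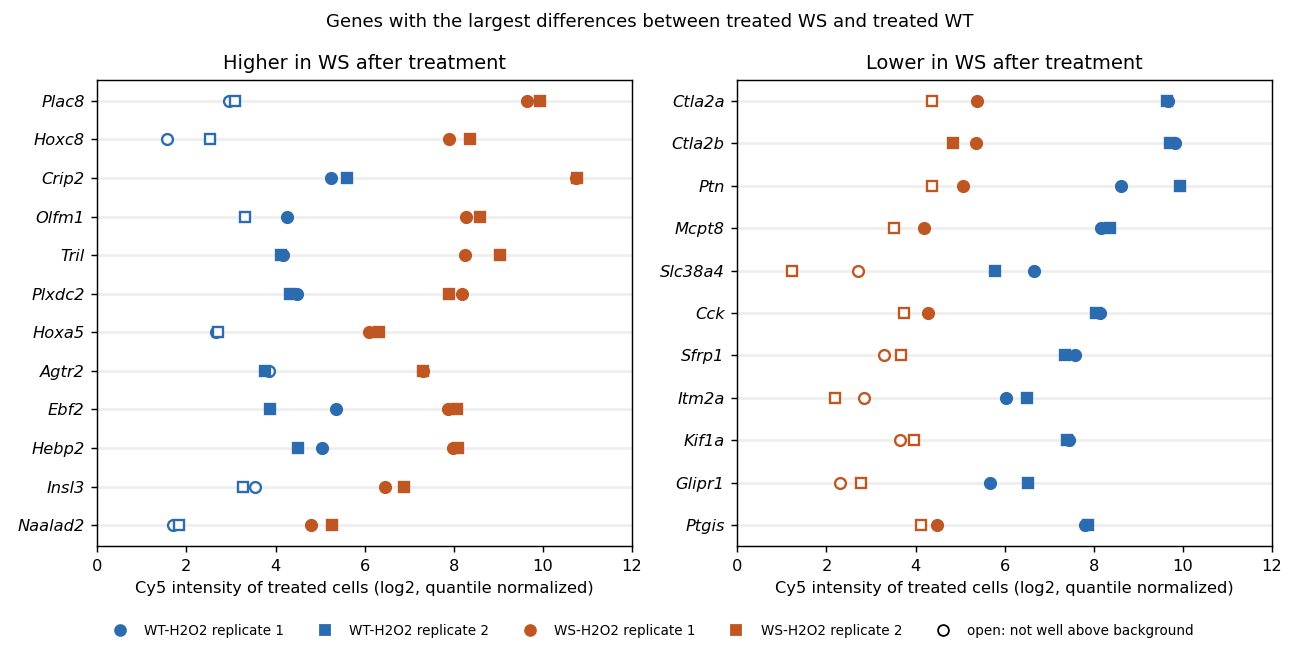
Cy5 intensity (log2, quantile normalized) of the 12 genes with the largest rise and 11 of the 12 with the largest fall in WS, 1 point per array. Blue points are WT-H2O2, orange points WS-H2O2, circles replicate 1, squares replicate 2, and open points were not well above background; in each row the blue and orange points do not overlap, as the choice of genes required.

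Hox genes, which encode the homeodomain factors that set position along the body axis, differed in both directions. Of 38 on the array 27 were tested, and 4 were higher and 3 lower in WS, 7 of 27 against 2.69% of all genes. Hoxc8, Hoxa5, Hoxd4 and Hoxd9 passed the filter through the genotype where they were high. Among the 19 well above background on all 4 arrays 2 were higher and 1 lower, against 2.02% of such genes. The higher genes belonged to the Hoxa and Hoxc clusters. Hoxc8 read 1.56 and 2.54 in WT, not well above background, and 7.88 and 8.37 in WS, at least 27.9-fold higher (adjusted p = 0.000223). Hoxa5 read 2.66 and 2.71 against 6.10 and 6.33, at least 7.40-fold higher. Hoxa7 (4.17 and 3.95 in WT, 7.47 and 7.14 in WS) and Hoxc6 (5.63 and 5.77, then 8.45 and 8.51) were measured on all arrays and differed 9.50-fold and 6.87-fold.

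The genes called lower were all of the Hoxd cluster, but the cluster did not move as a whole. Hoxd3 went the other way and was not called (7.78 and 7.55 in WT, 8.74 and 8.86 in WS). Hoxd8 was 7.22 and 7.54 in WT and 5.56 and 5.91 in WS (-1.64 ± 0.35, adjusted p = 0.0402). Hoxd9 fell from 5.61 and 5.63 to 4.05 and 3.61, with 1 WS array well above background, and Hoxd4 was at least 2.99-fold lower. The 3 lower genes and Hoxd3 were named after their values were seen. All 4 higher genes were called with normexp, loess, median centring and outlier spots kept, while 0 of the lower ones were called with normexp or loess, and none of the 7 without either WS array. The median over the 27 genes was 0.24, against -0.15 for all probes. Neighbours such as Hoxc9 (4.30 and 3.80 in WT, 5.52 and 5.23 in WS) did not pass the test (adjusted p = 0.0848).

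**Figure D3:**
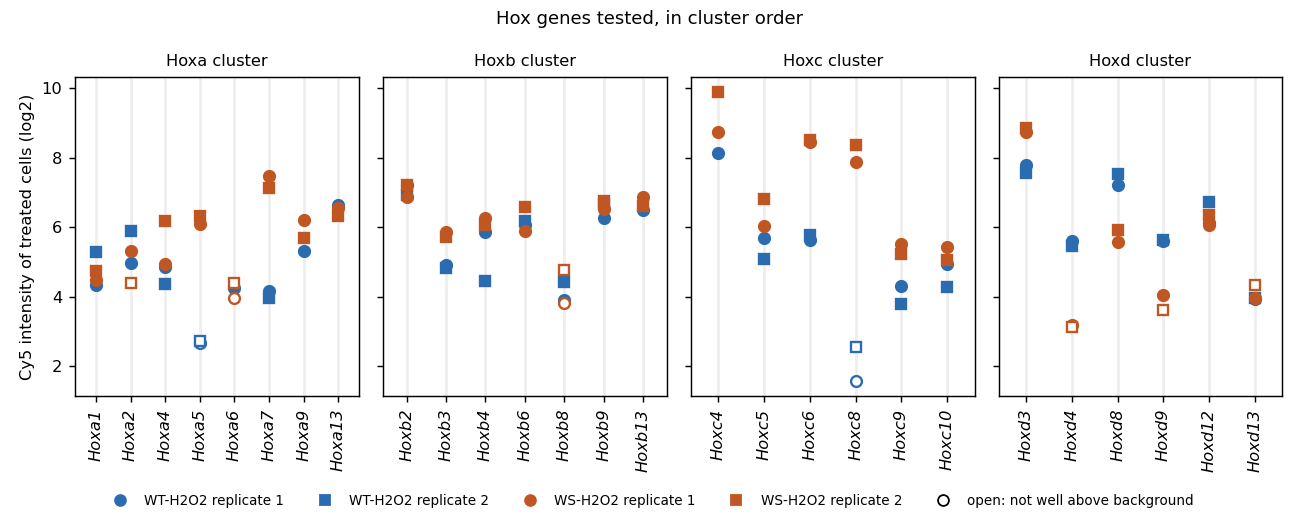
Cy5 intensity (log2, vertical axis) of the 27 Hox genes tested, grouped by cluster and ordered by gene number, with the same symbols for arrays as above. WS values of Hoxa5, Hoxa7, Hoxc6 and Hoxc8 lie above both WT values, and WS values of Hoxd4, Hoxd8 and Hoxd9 lie below them.

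Genes of the extracellular matrix also split. On the list of matricellular proteins, which are matrix-bound proteins that regulate cells more than they build fibres, 24 of 28 were tested, 5 were higher and 3 lower in WS, against 1.18% and 1.51% of all genes, and the median was 0.39. With complete values alone 3 of 14 were higher and 0 lower. Dcn, the proteoglycan decorin that binds collagen and TGF-β, rose from 8.20 and 8.22 in WT to 10.80 and 11.63 in WS (8.02-fold, adjusted p = 0.00422). Sparcl1 went from 4.55 and 4.74 to 7.35 and 6.96, and Fbn1, the microfibril protein fibrillin-1, from 6.37 and 5.92 to 8.09 and 9.02. Mgp, the inhibitor of calcification matrix Gla protein, had its only WT value on replicate 1 (7.48) and read 11.93 and 12.01 in WS, while its second, dimmer probe was not called (-0.53). Thbs2, a thrombospondin, was 6.51 and 6.73 in WT and 9.17 on its only WS array.

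The 3 lower genes lacked 1 WT value each. Ccn2, also known as connective tissue growth factor, read 10.18 in WT and 5.61 and 5.52 in WS, a difference of -4.61 ± 0.43 (adjusted p = 0.00145). Ccn1, its close relative Cyr61, read 7.56 against 5.14 and 4.90 (adjusted p = 0.0188), and Fbln2, fibulin-2, read 12.49 against 10.48 and 10.51. With the outlier spots kept, so that all 4 values entered, Ccn2 differed by -4.69 (adjusted p = 6.35e-05), Mgp by 4.25 and Ccn1 by -2.18 (adjusted p = 0.0313), and Fbln2 was no longer called (-1.43, adjusted p = 0.209). The genes with a missing value were named after their values were seen.

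Ccn1 and Ccn2 are known targets of YAP and TAZ, which act through TEAD factors on the sequence GGAATG. The Ccn1 promoter is shown because it holds that sequence in a gene called lower. From the RefSeq table (GRCm38.p6, chr3:145649936-145650235, minus strand, 250 bases before to 50 after the start), with the match on either strand in capitals, it reads:
Ccn1: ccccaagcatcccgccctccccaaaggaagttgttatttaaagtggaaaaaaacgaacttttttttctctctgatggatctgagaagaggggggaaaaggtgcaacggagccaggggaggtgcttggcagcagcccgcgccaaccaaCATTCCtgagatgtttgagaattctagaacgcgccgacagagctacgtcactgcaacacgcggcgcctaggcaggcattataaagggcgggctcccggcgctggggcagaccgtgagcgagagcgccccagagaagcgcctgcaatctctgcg
The match starts 103 bases before the start site. A match to GGAATG is common, and 14.7% of all 32851 promoters of this length in the table hold one on either strand. Of the tested matricellular genes 2 of 13 with a promoter in the table held a match.

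Collagen genes had a median of 0.63 over 22 tested, with 2 higher and 1 lower, against 1.18% and 1.51% of all genes. Col6a3, a chain of the microfibrillar collagen VI, rose from 7.57 and 7.53 to 9.05 and 10.07 (adjusted p = 0.0300). Col3a1, the chain of fibrillar collagen III, had 1 value in each genotype, 8.56 in WT and 11.65 in WS, so its call has no replicate spread of its own. Col8a1 was lower (7.09 and 7.55 against 5.42 and 5.79), and Col1a1 did not pass the test (11.31 and 11.26 against 11.77 and 12.67, adjusted p = 0.236). No collagen was called with normexp background correction or among the 14 with complete values. The receptors for platelet-derived growth factor, which mark fibroblasts, were higher in WS: Pdgfrb at 7.57 and 8.03 against 9.35 and 9.79, and Pdgfra at 5.60 and 5.68 against 8.07 on the only WS array with a value. A second probe of Pdgfra was not called (-0.53). Of 10 fibroblast markers tested 4 were called higher, against 1.18% of all genes, and 6 were not called. Of the 10, 3 were negative, down to -0.28, and the median was 0.51.

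Of 25 matrix proteases and inhibitors tested, none was called higher and 3 were lower, against 1.18% and 1.51% of all genes. Plaur, the urokinase receptor, was 7.77 and 7.76 in WT and 6.05 and 6.41 in WS. Timp1, the inhibitor of metalloproteinases, fell from 10.09 and 10.40 to 7.92 and 7.98 at its brightest probe, and the other 2 of its 3 probes were not called. The median of the list was 0.25, on the other side of 0 from its calls. Of 17 genes of the myofibroblast contractile apparatus none was called, at a background of 2.69%. Acta2, smooth muscle actin, read 11.23 and 10.01 in WT and 9.58 and 8.90 in WS (adjusted p = 0.147).

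Chemokines showed large differences of both signs. Of 26 genes on the list 13 were tested, and 3 were higher and 2 lower in WS, against 1.18% and 1.51% of all genes. Of these 5 calls, those of Ccl2, Ccl7 and Il1rl1 rest on 1 WT value each, and with complete values alone 0 of 8 were higher and 1 was lower. Ccl2, the monocyte chemoattractant, read 8.29 on its only WT array and 11.09 and 11.63 in WS, and Ccl7, its neighbour in the genome, 7.48 against 10.04 and 10.77. Cxcl16 was 4.10 and 3.85 against 5.54 and 5.46. Cxcl12, which holds blood progenitors through CXCR4, went the other way, from 9.49 and 9.31 in WT to 6.30 and 6.35 in WS (-3.07 ± 0.33, adjusted p = 0.00187). Il1rl1, the receptor for interleukin-33, was 9.03 on its only WT array and 5.88 and 6.63 in WS. Among 20 interferon-stimulated genes, Gbp2 and Ifit3 were higher (by 1.90 and 1.61) and none was lower, with a median of 0.49. Gbp2 was well above background on 1 WT array.

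Genes of DNA replication differed in one direction. All 28 on the array were tested, all 28 had a negative difference, 6 were called lower, against 1.51% of all genes, and none higher. The median was -1.26, against -0.15 for all probes. In untreated cells, read in Cy3, 0 of the differences on this list were positive, with a median of -0.56. The treated minus untreated difference, described below, was called for 3 of 26, all lower, against 2.75% of all probes. Tyms, thymidylate synthase, read 9.46 and 9.28 in WT and 7.34 and 6.98 in WS (-2.21 ± 0.34, adjusted p = 0.00994), and both of its probes were called. Rrm2, the ribonucleotide reductase subunit made in S phase, was 10.19 and 9.26 against 7.69 and 7.48. In both genes the WS arrays lay below the WT arrays.

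Other calls covered the entry into S phase and the fork itself. Ccne1, cyclin E1, was 7.52 on both WT arrays and 5.71 and 5.19 in WS. Pole, the catalytic subunit of polymerase epsilon, was 6.99 and 7.02 against 5.42 and 5.15. Cdc6, which loads the MCM helicase, was 5.98 and 6.25 against 4.47 and 4.52, with 1 WS array well above background. The list's calls fell to 1 with outlier spots kept, where 27 of 28 differences stayed negative and the median was -0.85, and to 0 without either WS array. Without WT-H2O2 replicate 1 or 2 they numbered 13 in each case.

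E2F factors drive many S phase genes through the sequences TTTGGCGC, TTTCCCGC, TTTCGCGC and TTTGCCGC. The Cdc6 promoter is printed because it was the only promoter of a called replication gene in the RefSeq table that held a match (GRCm38.p6, chr11:98907901-98908200, plus strand, match on either strand in capitals):
Cdc6: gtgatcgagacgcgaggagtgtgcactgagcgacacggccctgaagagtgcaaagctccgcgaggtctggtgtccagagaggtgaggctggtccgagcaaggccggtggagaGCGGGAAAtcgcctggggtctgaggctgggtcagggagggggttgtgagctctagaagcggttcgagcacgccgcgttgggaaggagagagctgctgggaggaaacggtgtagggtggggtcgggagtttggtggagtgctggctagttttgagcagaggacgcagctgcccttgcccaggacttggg
The match begins 138 bases before the start site. Of the tested replication genes 22 had a promoter in the table and 11 of these held a match. Of all 32851 promoters 2.26% held one, and of all 27025 genes 2.61%.

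Mitosis genes shared the sign but not the size. Of 30 tested none was called, at a background of 2.69%, 27 were negative and the median was -0.66. In untreated cells the median was -0.68, with 3 positive, and the median treated minus untreated difference was 0.03. Birc5 (10.30 and 9.92 in WT, 8.89 and 8.91 in WS) and Plk1 (8.19 and 8.51, then 7.17 and 7.02) missed the threshold with adjusted p = 0.101 and 0.0917, as did Cdk1, whose probe read 5.44 and 4.97 against 7.03 and 6.57 (adjusted p = 0.0526). Among cell cycle inhibitors and senescence genes, Cdkn2a, the locus of p16 and p19ARF, was higher in WS (4.38 and 3.99 against 5.87 and 5.69) and Ezh2, the Polycomb methyltransferase, was lower (7.67 and 7.79 against 6.02 and 6.36), both close to the threshold. Cdkn1a, the p53 target p21, read 7.95 on its only WT array and 8.06 and 7.72 in WS, a difference of -0.06 with an interval of -1.05 to 0.93. None of 22 p53 targets was called, at the same background.

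Of 16 RecQ helicases and partners of the Werner protein, Exo1, a 5′ to 3′ exonuclease of mismatch and break repair, was called lower (7.16 and 6.80 against 5.35 and 5.26), and the median was -0.62. Pcna, the sliding clamp of replication, read 10.93 and 10.63 against 9.19 and 9.52 (adjusted p = 0.0655). None of 15 base excision repair genes was called, at a background of 2.69%.

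Of 19 genes that remove peroxide none was called, at a background of 2.69%, and Cat, catalase, read 8.16 and 7.76 in WT and 8.57 and 8.87 in WS (0.77, interval -0.01 to 1.54). Of 23 NRF2 targets 3 were called. Ephx1, microsomal epoxide hydrolase, was higher (7.75 and 7.16 against 9.29 and 9.55), and the other 2 were lower. Gclc, the catalytic subunit that limits glutathione synthesis, read 7.87 and 7.98 in WT and 6.02 and 5.88 in WS (-1.98 ± 0.33, adjusted p = 0.0148). Slc7a11, which imports the cystine that glutathione needs, was 4.68 and 5.16 in WT and not well above background in WS, at least 1.96-fold lower. Gsr, glutathione reductase, read 8.60 and 8.93 against 7.22 and 7.42 and missed the threshold (adjusted p = 0.0604), as did Nqo1 (1.37, adjusted p = 0.0711).

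Targets of ATF4, the factor of the integrated stress response that serves amino acid supply, were compared in both states. In treated cells 4 of 25 tested were lower in WS, against 1.51% of all genes, none was higher, 21 were negative and the median was -0.94. Among the 22 well above background on all 4 arrays 2 were lower and the median was -0.77. Chac1, which breaks down glutathione, read 9.02 and 8.38 in WT and 5.87 and 6.33 in WS (6.06-fold, adjusted p = 0.00702). Psph, the last enzyme of serine synthesis, was 8.82 and 8.61 against 6.69 and 6.75. Cth, the cystathionine gamma-lyase that makes cysteine, was 6.45 and 6.59 against 4.18 and 4.60, with 1 WS array well above background. Slc7a11, above, was the fourth. The calls numbered 1 with outlier spots kept, 0 without either WS array, and 8 and 9 without WT-H2O2 replicate 1 or 2.

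Untreated cells of the same genotypes were read in Cy3 on the same arrays. Cy3 and Cy5 were normalized separately, so their levels cannot be set against each other within a genotype. Only the differences between genotypes are compared here and below. There, 17 of the 21 ATF4 targets with values were higher in WS, with a median difference of 0.96. Chac1 was 7.87 on both WT arrays and 9.18 and 9.34 in WS before treatment. Trib3, a pseudokinase induced by ATF4, was 6.60 and 6.97 in untreated WT and 10.23 on the only WS array with a value, and after treatment 7.03 and 7.00 in WT and 5.64 and 5.54 in WS. Ddit3, the factor CHOP, was 9.79 and 9.69 against 12.02 and 12.20 untreated, and 8.80 on its only WT array against 8.62 and 8.56 treated. The order of the genotypes thus differed between the states for Chac1 and Trib3, and for Ddit3 the untreated gap was not seen after treatment.

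The change itself was tested as the treated minus the untreated difference, from the Cy5 over Cy3 ratio of each array. It was called for 604 of 21934 probes (2.75%), and for 16 of the 21 ATF4 targets, all lower. The change was -4.81 for Trib3, -3.99 for Chac1, -2.78 for Asns, which makes asparagine, -2.63 for Psph and -2.35 for Mthfd2 of mitochondrial folate metabolism. limma estimated 1 variance for all probes in this fit, so its p-values rest on a shared spread. The count over all probes fell to 129 with outlier spots kept, where 15 ATF4 targets were called, and to 0 with the replicate number as a block.

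ATF4 binds composite elements with the core TGATGNAA. The promoters of Chac1 (GRCm38.p6, chr2:119350992-119351291, plus strand) and Slc7a11 (chr3:50443564-50443863, minus strand) are shown because both genes were called lower and both hold the core, with matches on either strand in capitals:
Chac1: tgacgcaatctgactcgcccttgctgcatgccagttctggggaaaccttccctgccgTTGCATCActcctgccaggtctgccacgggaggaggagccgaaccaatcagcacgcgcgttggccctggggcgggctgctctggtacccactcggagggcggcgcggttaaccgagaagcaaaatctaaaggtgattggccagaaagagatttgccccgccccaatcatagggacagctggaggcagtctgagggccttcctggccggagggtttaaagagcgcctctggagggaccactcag
Slc7a11: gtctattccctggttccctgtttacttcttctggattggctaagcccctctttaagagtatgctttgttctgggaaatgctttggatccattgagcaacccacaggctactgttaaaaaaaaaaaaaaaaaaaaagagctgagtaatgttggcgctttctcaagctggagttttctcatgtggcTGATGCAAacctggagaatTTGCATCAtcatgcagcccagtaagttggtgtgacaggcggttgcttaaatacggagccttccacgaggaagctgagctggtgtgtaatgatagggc
The match in Chac1 starts 193 bases before the start site, and those in Slc7a11 start 66 and 47 bases before it, facing each other. Of the tested ATF4 targets 21 had a promoter in the table and 8 of these held a match. Of all 32851 promoters 3.97% held one, and of all 27025 genes 4.51%.

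Among all called genes, Chac1, Psph, Taf7l, Cystm1, Car6, Cth, Lrrc17 and Maob had the smallest adjusted p for this change. Lrrc17, a secreted leucine-rich repeat protein, was 8.84 and 8.60 in WT and 9.61 and 9.38 in WS untreated (Cy3). Treated (Cy5), it was 4.11 and 4.25 against 7.42 and 6.93, a change of 2.22 in the genotype difference. Cystm1, a small membrane protein, read 8.08 and 7.83 in WT against 7.98 and 8.35 in WS untreated. Its treated values were 7.58 and 7.01 against 5.11 and 5.23. Slc7a11, Car6, Maob and Taf7l were not well above background in treated WS, so the size of their change depends on how the background was handled. Near background the genotype differences in the 2 channels need not have the same scale either.

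For metallothioneins, which bind zinc and copper and scavenge oxidants, the genotypes were apart before treatment and close after it. Mt2 was 10.66 on its only untreated WT array with a value and 13.25 and 13.40 in untreated WS, and after treatment it was 10.48 and 10.45 in WT and 10.39 and 10.36 in WS (-0.09 ± 0.33). Mt1 read 12.16 on its only WT array against 13.69 and 14.22 untreated, and 11.31 and 11.86 against 10.71 and 11.02 treated. No metallothionein was called in treated cells, and the change was called for both genes (-2.76 and -2.24). Proliferins, placental prolactin relatives that growing fibroblasts make, were not called in treated cells. Prl2c5 was 9.70 and 9.43 in WT and 11.70 and 13.81 in WS untreated, and 11.55 and 11.23 against 11.91 and 13.01 treated (adjusted p = 0.210), and its change of -2.13 was called. The proliferin genes are nearly identical, so their probes may share signal.

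**Figure D4:**
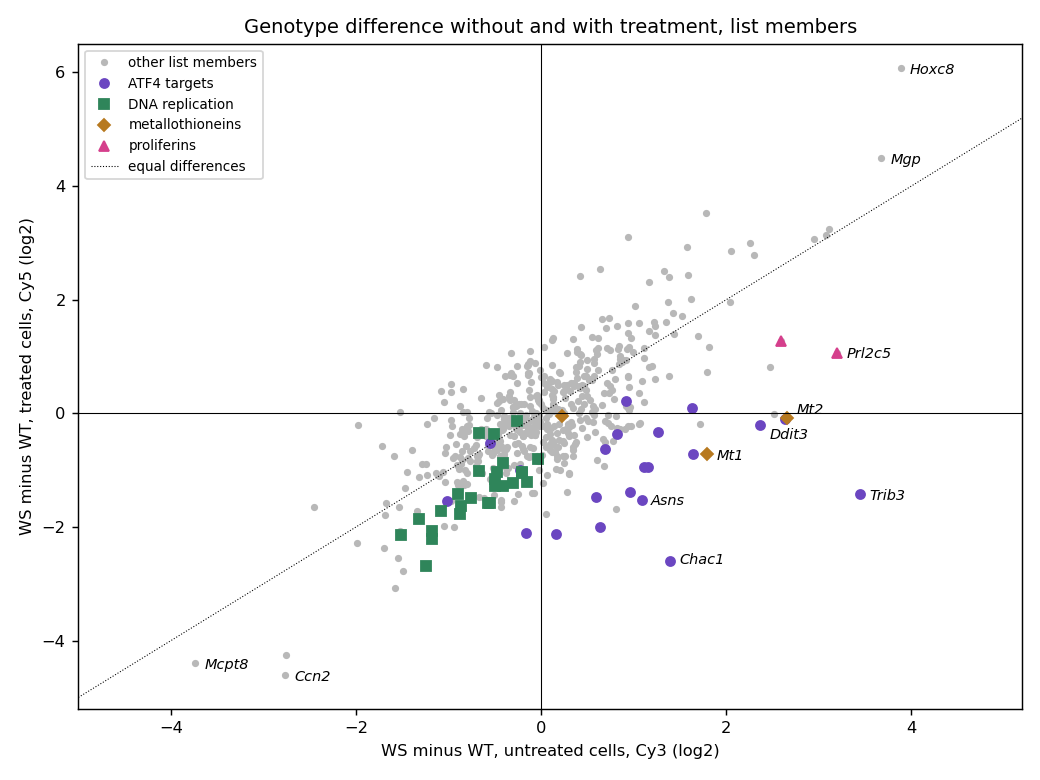
WS minus WT difference in treated cells (Cy5, log2, vertical axis) against that in untreated cells (Cy3, log2, horizontal axis) for the members of the gene lists, 1 point per gene, with the dotted line at equal differences. Most points lie along the line, whereas ATF4 targets such as Trib3 (3.44 untreated, -1.42 treated) and the metallothioneins lie below it on the right.

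For most called probes the untreated cells had the same sign of difference. Of 495 called probes with Cy3 values in both genotypes, 482 (97.4%) had that sign and 348 were at least 2-fold apart before treatment, where 75.7% of all tested probes shared the sign. The 2 channels share arrays and spots, so these are not independent measurements. Plac8 differed by 6.05 untreated and 6.77 treated, Crip2 by 5.18 and 5.33, Ptn by -4.61 and -4.55, and Mcpt8 by -3.74 and -4.40. The untreated values have no test here.

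Imprinted and IGF-axis genes gave 3 rises and 1 fall among 21, against 1.18% and 1.51% of all genes. Besides Dcn and Slc38a4, the maternally expressed RNAs H19 (5.30 and 6.34 against 7.44 and 8.10, adjusted p = 0.0469) and Meg3 (5.15 and 4.97 against 6.53 and 6.79) were higher in WS, and 1 of 4 Meg3 probes was called. Ripk3, the kinase of necroptosis, was the only call among 21 genes of cell death, at 4.27 and 3.74 in WT and 7.72 and 6.56 in WS. Egr1, an immediate early factor, was lower (6.73 and 6.62 against 5.04 and 5.22).

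In metabolism, Tm7sf2, a sterol reductase, was the only call among 22 genes of cholesterol synthesis (4.05 and 3.53 against 6.87 and 6.43), a list with 17 positive differences and a median of 0.70. Pdk1, which restrains pyruvate dehydrogenase, was the only call among 18 genes of glycolysis (4.18 and 4.03 against 6.17 and 5.49). Of 31 respiratory chain genes none was called, 27 were negative and the median was -0.65, and Cox5a (11.71 and 11.21 against 9.77 and 10.01) came closest to the threshold (adjusted p = 0.0511). A second probe of Cox5a differed by 0.11. No gene was called among 22 of ER folding, 22 heat shock and chaperonin genes, 19 integrins and cadherins or 18 adipogenic and fatty acid genes, with medians of -0.08, -0.31, 0.01 and -0.15. The background for each list in this paragraph was the 2.69% of all genes that were called. In the marker lists the calls included Col3a1, Dcn, Pdgfra and Pdgfrb for fibroblasts and Mcpt8 for basophils. The other members tested, 6 of 10 for fibroblasts and 3 of 4 for mast cells and basophils, were not called.

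**Figure D5:**
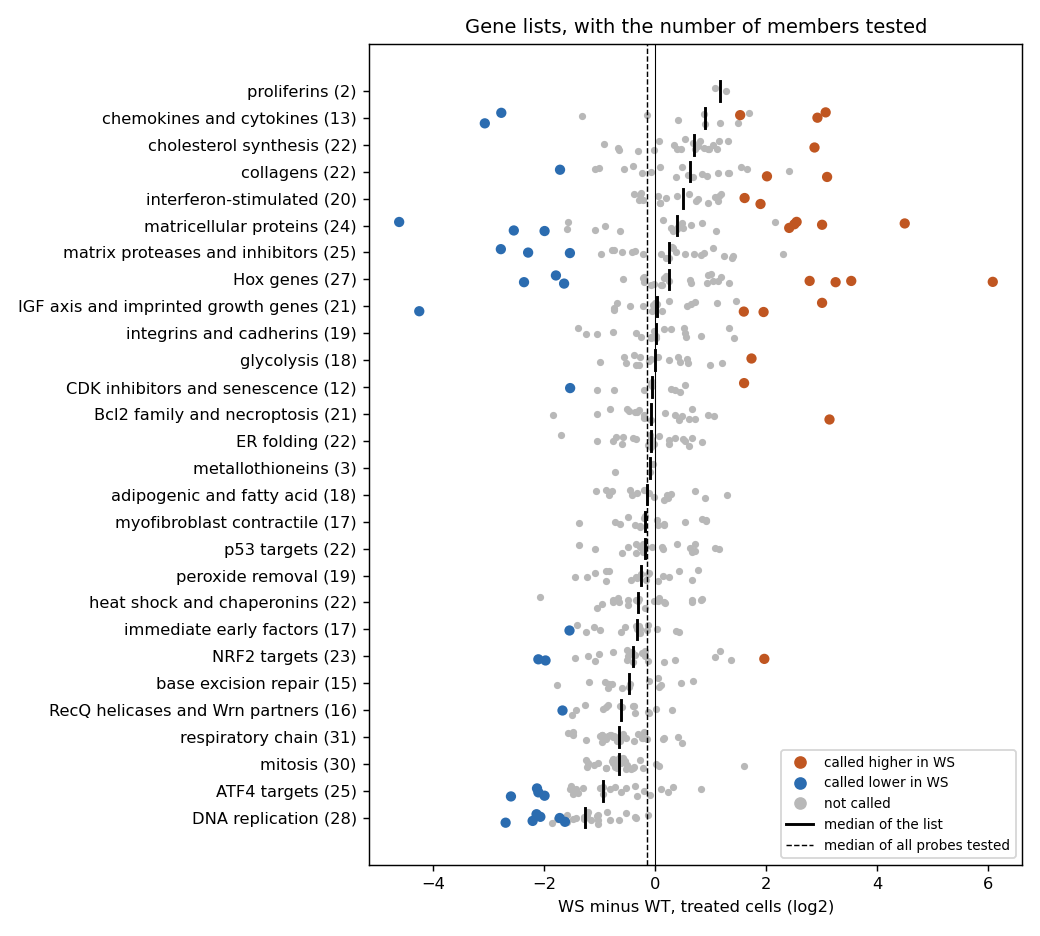
WS minus WT difference in treated cells (log2, horizontal axis) for the tested members of 28 gene lists, 1 point per gene, with the number tested in parentheses, the list median as a bar and the median of all probes as a dashed line. DNA replication (median -1.26) and ATF4 targets (-0.94) lie lowest, while Hox genes and matricellular proteins hold calls on both sides of 0.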

How the data were processed

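RNA of 4 samples was used, 2 WT-H2O2 and 2 WS-H2O2, each hybridised against untreated RNA of its genotype. The labels describe total RNA and the study's methods cytoplasmic RNA. The deposited intensity values are the authors' scanner output from Feature Extraction A.7.5.1 (per the file headers), not normalized. The authors' own lists came from background subtraction, loess and limma, and their deposited log2 ratios per array were used only as an alternative. Here the local background was subtracted from the Cy5 mean signal, values at or below 0 were set to missing, log2 was taken and the 4 channels were quantile normalized. Control spots and outlier spots were left out, and spots of 1 probe were averaged. limma 3.58.1 in R 4.3.3 fitted WS against WT with Benjamini-Hochberg adjustment over all 22522 probes. A call needed an adjusted p under 0.05 and at least 2-fold. The treated minus untreated difference was fitted on the Cy5 minus Cy3 log2 values of each array.

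Each gene was read at its brightest probe. For Ccne1, Psph, Sparcl1, Col8a1, Plaur and H19 a second probe had the same sign and was not called. Probe names came through RefSeq accessions for 20726 probes, symbols for 5033 and synonyms for 5277, and 10138 kept the name in the files. Named genes were Wrn, the 12 largest rises and the 12 largest falls among called genes with all values, up to 4 members of each list with the largest difference and all values, the 8 called genes with the smallest adjusted p for the treated minus untreated difference, and called cell type markers. Cdc6, Pole, Hoxc9, Hoxd3, Hoxd4, Hoxd8, Hoxd9, Nqo1, Mthfd2, Trib3 and Mcpt2 were chosen after their values were seen. So were the list members that lacked a value, such as Ccn1, Ccn2, Mgp, Ccl2, Asns, Ddit3 and Cdkn1a. The members and lists were chosen with earlier results of these data known. Same-numbered arrays of the genotypes did not deviate together (r = 0.116, and only 2 pairs), so the replicate number was not taken as a pairing. The number of arrays limits the precision, and 2 residual degrees of freedom remained before variances were shared across probes. The alternatives were other background corrections, normalizations, filters, fits and each array left out. Probes with complete values, the authors' log2 table and outlier spots kept with complete values were added after the data were seen. The untreated WT against WS arrays entered no test. A few called genes counted in the lists are not reported here by name.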

Additional observations from a re-analysis of the deposited data

Results flagged for a closer look

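The 16 genes listed here were picked from those whose WS minus WT difference changed between untreated and treated cells. The change was called by limma's test of it (adjusted p under 0.05). Over all probes 604 were called. Genes outside the 16 were among them, such as Agtr2 (2.36), Cxcl12 (-1.49) and the other proliferin gene tested, Prl2c3 (-1.32). Those on the ATF4 list had changes (log2) of -4.81 for Trib3, -3.99 for Chac1, -2.78 for Asns, -2.63 for Psph, -2.63 for Ddit3, -2.35 for Mthfd2, -2.29 for Cth and -1.94 for Slc7a11. The metallothionein genes Mt2 and Mt1 changed by -2.76 and -2.24, and the proliferin gene Prl2c5 by -2.13. Taf7l and Cystm1 each changed by -2.33, Car6 by -2.32 and Maob by -2.14, and Lrrc17 by 2.22. Slc7a11, Taf7l, Car6 and Maob were not well above background in treated WS, so the size of their change depends on the background, and that of Slc7a11 ranged from -2.27 to -0.35 over the alternatives. None of the 16 was called with the replicate number as a block. Maob changed by 0.29 with normexp background correction. No sample could be tested as lying far from its group, since each group had 2 arrays.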

How the results depend on the processing

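The 507 calls (224 higher, 283 lower) kept their sign in every setting where they were tested, but their number moved. It was 145 (67 and 78) with normexp, 199 (97 and 102) with loess and Aquantile, 94 (57 and 37) with no filter on dim probes, 273 (138 and 135) for probes above background on all 4 arrays, 39 (21 and 18) at the study's stricter thresholds and 1065 (390 and 675) in a separate-channel model of 12967 probes. With outlier spots kept it was 288, of which 88 were lower, and with complete values, an alternative chosen after seeing the data, 179 were lower. Leaving out 1 array gave 0 to 3081 calls (0 to 802 higher, 0 to 2279 lower), where WT-H2O2 replicate 1 gave 3081, WT-H2O2 replicate 2 gave 1231, WS-H2O2 replicate 1 gave 1 and WS-H2O2 replicate 2 gave 0. With the replicate block 400 were called.

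The 604 calls for the treated minus untreated difference became 210 with median centring, 129 with outlier spots kept (129 also with complete values added), 379 with no filter, 126 at the study's thresholds, 0 with the replicate block, 311 from the authors' log2 table and 180 to 1013 without 1 array. Mt2 turned to 0.094 with loess and 0.23 with outlier spots kept, Cdkn1a to 0.11 with the replicate block (-0.23 to 0.11 without 1 array), and the change of Maob to 0.29 with normexp. The cause of these shifts was not tested. Of 75 called genes named in the text, 25 stayed called under every alternative other than leaving out an array. A block for slide or scan day was not run, since each array was its own slide and the 4 arrays shared a day. Probes near background limit the precision, above all on WS-H2O2 replicate 2.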
